A study of Homo sapiens with 6 samples.

Results

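Macroautophagy genes were examined in SW480, a long-established cell line from a human colorectal cancer, after knockdown of PCYT2. PCYT2 is the enzyme that joins phosphoethanolamine to CTP in the CDP-ethanolamine pathway, one of the routes by which a cell makes phosphatidylethanolamine (PE). The set held 38 genes, chosen by symbol for their known place in the pathway, with earlier results of these data known: 5 genes of the ULK initiation complex, 6 of the class III PI3-kinase complex and its partners, 5 of membrane supply and PI3P binding, 9 of the conjugation machinery, 4 ATG8 proteins, 5 autophagy receptors, and 4 genes of the lysosome and its transcription factors. All 38 were listed among the 19746 genes of the RNA-Seq tables, and all 38 were among the 12756 genes tested.

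RNA-Seq had been done on SW480 cells with a nontargeting hairpin (shNT, 2 libraries), with the hairpin shPcyt2-1 (2 libraries) or with the hairpin shPcyt2-2 (2 libraries). All 3 groups carried a lentiviral hairpin vector and were selected with puromycin as pools of cells, so shNT is a control for the vector and the selection. The labels do not say whether the 2 libraries of a group came from separate cultures, so each p-value measures the spread between these libraries, which may be technical. Values were read as FPKM, a unit inferred from their range (TPM over part of the genes cannot be told apart). In FPKM, fragments are divided by gene length and library size, which allows levels to be compared between genes. The values summed to between 396467 and 402612 per library. The number of reads is unknown. A relative depth read from the lowest values was 1 and 0.908 in the shNT libraries. It was 0.763 and 0.973 with shPcyt2-1 and 1 and 0.853 with shPcyt2-2, and the groups thus overlapped in depth.

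In macroautophagy the ULK kinase complex starts the formation of a double membrane, the class III PI3-kinase complex marks the site with PI3P, and ATG9A vesicles and the ATG2 lipid transfer proteins supply lipid. A ubiquitin-like cascade then joins the ATG8 proteins (the LC3 and GABARAP families) to PE in that membrane, which makes PE, the product of the pathway in which PCYT2 acts, the lipid anchor of the ATG8 proteins. Receptors such as SQSTM1 bind both cargo and ATG8 proteins, and the closed autophagosome fuses with the lysosome, whose genes are controlled in part by TFEB and TFE3. These are background facts about the proteins. The data measured RNA only, and neither lipidation nor autophagic flux was measured in these libraries.

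PCYT2, the target of both hairpins (ENSG00000185813; GRCh38 chromosome 17, 81900965 to 81911464), was at 11.6 and 13.8 FPKM in the shNT libraries, 7.11 and 7.36 FPKM with shPcyt2-1, and 6.71 and 6.18 FPKM with shPcyt2-2. No knockdown library reached either shNT library. Its log2 fold change on the log2(FPKM + 1) scale was -0.73 with shPcyt2-1 (standard error 0.10, limma adjusted p = 0.00204) and -0.88 with shPcyt2-2 (standard error 0.10, limma adjusted p = 0.00261). Of its exonic bases, 28.1% overlap other genes, mainly NPB on the opposite strand, and whether the kits keep strand is not given in the sources used here. The RNA of PCYT2 was thus lower but still present with both hairpins.

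The labelled cell type was checked against its markers. All 7 epithelial markers (EPCAM, KRT8, KRT18, KRT19, CDH1, CDX2 and VIL1) were tested, and KRT8 was the most abundant of them. Their summed level was 8210 and 8769 FPKM with shNT, 8432 and 8525 FPKM with shPcyt2-1, and 6257 and 6554 FPKM with shPcyt2-2. The epithelial sum was thus lowest in the shPcyt2-2 libraries, where KRT8 (log2 fold change -0.41, limma adjusted p = 0.00483), KRT18 (-0.45, limma adjusted p = 0.00318) and KRT19 (-0.44, limma adjusted p = 0.00546) fell, while CDX2 fell with shPcyt2-1 (-0.65, limma adjusted p = 0.00138). Of the 4 leukocyte markers 3 were listed, and CD68 was the only 1 tested, whereas PTPRC was not listed. The leukocyte sum, nearly all of it CD68, ranged from 16.1 to 22.7 FPKM and overlapped between the groups. Of the exonic bases of CD68, 85.8% overlap other genes, mainly AC016876.2 on the same strand, so its level alone does not show leukocytes. Of the 5 fibroblast markers 4 were listed and 2 tested, COL3A1 was not listed, and their sum, led by LUM, was 1.88 and 1.94 FPKM with shNT, 3.39 and 3.79 FPKM with shPcyt2-1, and 2.99 and 2.82 FPKM with shPcyt2-2. LUM rose with shPcyt2-1 (log2 fold change 0.81, limma adjusted p = 0.00193). All 3 endothelial markers were listed, none was tested, and their sum, led by CDH5, was between 0.513 and 0.769 FPKM. The part of these marker differences in the results was not tested, and in bulk RNA fewer cells of a type and less RNA per cell cannot be told apart.

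TFEB and TFE3 bind E-box sequences, so the promoters of the autophagy genes are shown for those that hold one. RefSeq promoters (250 bases before to 50 bases after the start of the gene, GRCh38.p14) matched 34 of the 38 genes. RB1CC1, UVRAG, ATG4D and LAMP2 had no match. The E-box CACGTG, which reads the same on both strands, was found in 3 of the 34 genes (8.82%), against 2396 of all 27305 genes with a promoter (8.78%). The longer form TCACGTGA, which contains the E-box, was found in 2 of 34 (5.88%), against 321 of 27305 (1.18%). Counts this small say nothing about the set. The 3 genes are LAMP1 (a lysosomal membrane glycoprotein; chr13:113296989-113297288, plus strand), ATG14 (the subunit that directs the PI3-kinase complex to autophagy; chr14:55411781-55412080, minus strand) and ATG3 (the enzyme that transfers ATG8 proteins to PE; chr3:112561913-112562212, minus strand). Their promoters are printed 5′ to 3′ on the strand of the gene, with each E-box and each longer form in capitals.
LAMP1: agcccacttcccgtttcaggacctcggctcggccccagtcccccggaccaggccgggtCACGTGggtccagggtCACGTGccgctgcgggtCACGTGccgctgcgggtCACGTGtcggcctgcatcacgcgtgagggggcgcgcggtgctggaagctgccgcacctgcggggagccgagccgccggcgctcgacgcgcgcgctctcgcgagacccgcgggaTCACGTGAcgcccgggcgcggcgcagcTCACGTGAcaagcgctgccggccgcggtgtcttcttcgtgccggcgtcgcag
ATG14: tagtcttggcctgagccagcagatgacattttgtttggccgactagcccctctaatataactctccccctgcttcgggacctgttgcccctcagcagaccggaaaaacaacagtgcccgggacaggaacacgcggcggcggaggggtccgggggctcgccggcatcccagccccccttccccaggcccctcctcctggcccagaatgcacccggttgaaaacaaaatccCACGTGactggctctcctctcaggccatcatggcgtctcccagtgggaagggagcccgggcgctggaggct
ATG3: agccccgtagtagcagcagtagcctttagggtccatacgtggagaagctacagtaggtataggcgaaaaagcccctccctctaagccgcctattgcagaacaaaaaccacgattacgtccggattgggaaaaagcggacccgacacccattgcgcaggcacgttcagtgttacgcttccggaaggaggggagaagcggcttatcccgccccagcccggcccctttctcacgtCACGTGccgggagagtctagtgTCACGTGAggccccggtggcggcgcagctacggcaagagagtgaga
LAMP1 held 6 matches, the first bases of which lie at -192, -176, -159, -142, -28 and -1 relative to the start of the gene, and it was the only 1 of the 27305 genes with at least 6. ATG14 held 1 match at -21, and ATG3 held 2, at -18 and 5. These matches describe the sequence and do not show binding. Among these 3 genes, LAMP1 and ATG14 rose with shPcyt2-1 only, and ATG3 did not pass with either hairpin, as given below. The other 31 genes with a promoter, MAP1LC3B among them, held no CACGTG in this window.

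In the shNT libraries the autophagy genes covered a wide range of levels. The median gene was at 16.9 FPKM, against 6.89 FPKM over all tested genes, 25 of the 38 were at 10 FPKM or more, and 9 were under 5 FPKM. GABARAP was the most abundant at 95.0 ± 3.13 FPKM (SD, n = 2), followed by LAMP1 at 49.2 ± 3.16 FPKM (SD, n = 2) and ATG101, a stabilizing subunit of the ULK complex, at 47.1 ± 0.807 FPKM (SD, n = 2). The ranges of LAMP1 and ATG101 overlapped. SQSTM1, GABARAPL1, GABARAPL2 and MAP1LC3B followed between 35.0 and 39.0 FPKM on average and each overlapped the next in this order. At the low end lay ATG7, ATG4C, PIK3C3, ATG14, ATG2B, ULK2 and ATG10, with ULK2 at 1.45 ± 0.258 FPKM (SD, n = 2) and ATG10, the E2-like enzyme that joins ATG12 to ATG5, lowest at 0.590 ± 0.0368 FPKM (SD, n = 2). Paralogs differed, since ULK1 was at 21.4 FPKM and ULK2 at 1.45 FPKM, and ATG2A was at 16.9 FPKM and ATG2B at 1.87 FPKM.

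With shPcyt2-1, 11 of the 38 genes passed the threshold (limma adjusted p under 0.05 over all tested genes). Of these, 10 were higher than with shNT: ATG13, PIK3R4, ATG14, ATG9A, ATG10, ATG12, MAP1LC3B, GABARAP, LAMP1 and LAMP2. The only lower gene was ULK1. Over all tested genes, 16.5% were called higher and 10.1% were called lower in the same comparison, so the 26.3% of autophagy genes that were higher stand beside a broad background of change. The median log2 fold change of the 38 genes was 0.093, against 0.067 over all tested genes. With median-ratio scaling 8 were higher and 1 lower, while all genes then split into 1476 higher and 1713 lower in place of 2109 and 1291. After correction for GC content and gene length, 8 were higher and 4 lower, with ATG4C, OPTN and RB1CC1 added to the lower genes, while all genes split into 1809 higher and 1689 lower. Without replicate 1 of shPcyt2-1, 7 of the 38 genes were called, and over all tested genes the calls fell to 626 higher and 521 lower.

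With shPcyt2-2, 6 of the 38 genes passed. UVRAG, WIPI1, MAP1LC3B, NBR1 and LAMP2 were higher, and ATG4D was lower. Over all tested genes 7.69% were called higher and 4.74% lower, against 13.2% and 2.63% of the autophagy genes. The median log2 fold change of the 38 genes was 0.12, against 0.044 over all tested genes. This gap closed after correction for GC content and gene length (-0.0023 against -0.0017) and without replicate 2 of shNT (0.045 against 0.042). It stayed with median-ratio scaling (0.065 against 0.0011) and without replicate 1 of shNT (0.14 against 0.044). With that scaling 4 of the 38 genes were higher and 1 lower, while all genes split into 760 higher and 845 lower. After correction for GC content and gene length 6 genes were higher and 2 lower. ATG4D and WIPI1 were then no longer called, ATG101 and ATG2A were added to the higher genes, and BECN1 and OPTN to the lower. At an unadjusted p under 0.05, 9 were higher and 4 lower, against 19.6% and 11.6% of all tested genes, so these counts were near the background. Of the 6 adjusted calls 0 remained without replicate 1 of shPcyt2-2, where all genes gave 55 higher and 70 lower in place of 981 and 604. One call remained without replicate 2 of shPcyt2-2 (383 and 179 over all genes) and one without replicate 2 of shNT (231 and 172), so calls over all genes fell in these settings too. With no filter on low values none of the 6 remained, and all 19746 genes gave 59 higher and 65 lower. When single libraries were dropped, the log2 fold change stayed between 0.31 and 0.42 for NBR1 and between 0.32 and 0.41 for UVRAG. For LAMP2 it stayed between 0.51 and 0.78. It ranged from 0.26 to 0.54 for WIPI1, from 0.26 to 0.47 for MAP1LC3B and from -0.43 to -0.26 for ATG4D. These ranges do not cover the processing alternatives. Both hairpins were compared with the same shNT libraries, so their changes are not independent and are given side by side. LAMP2 and MAP1LC3B were called with both.

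**Figure D1:**
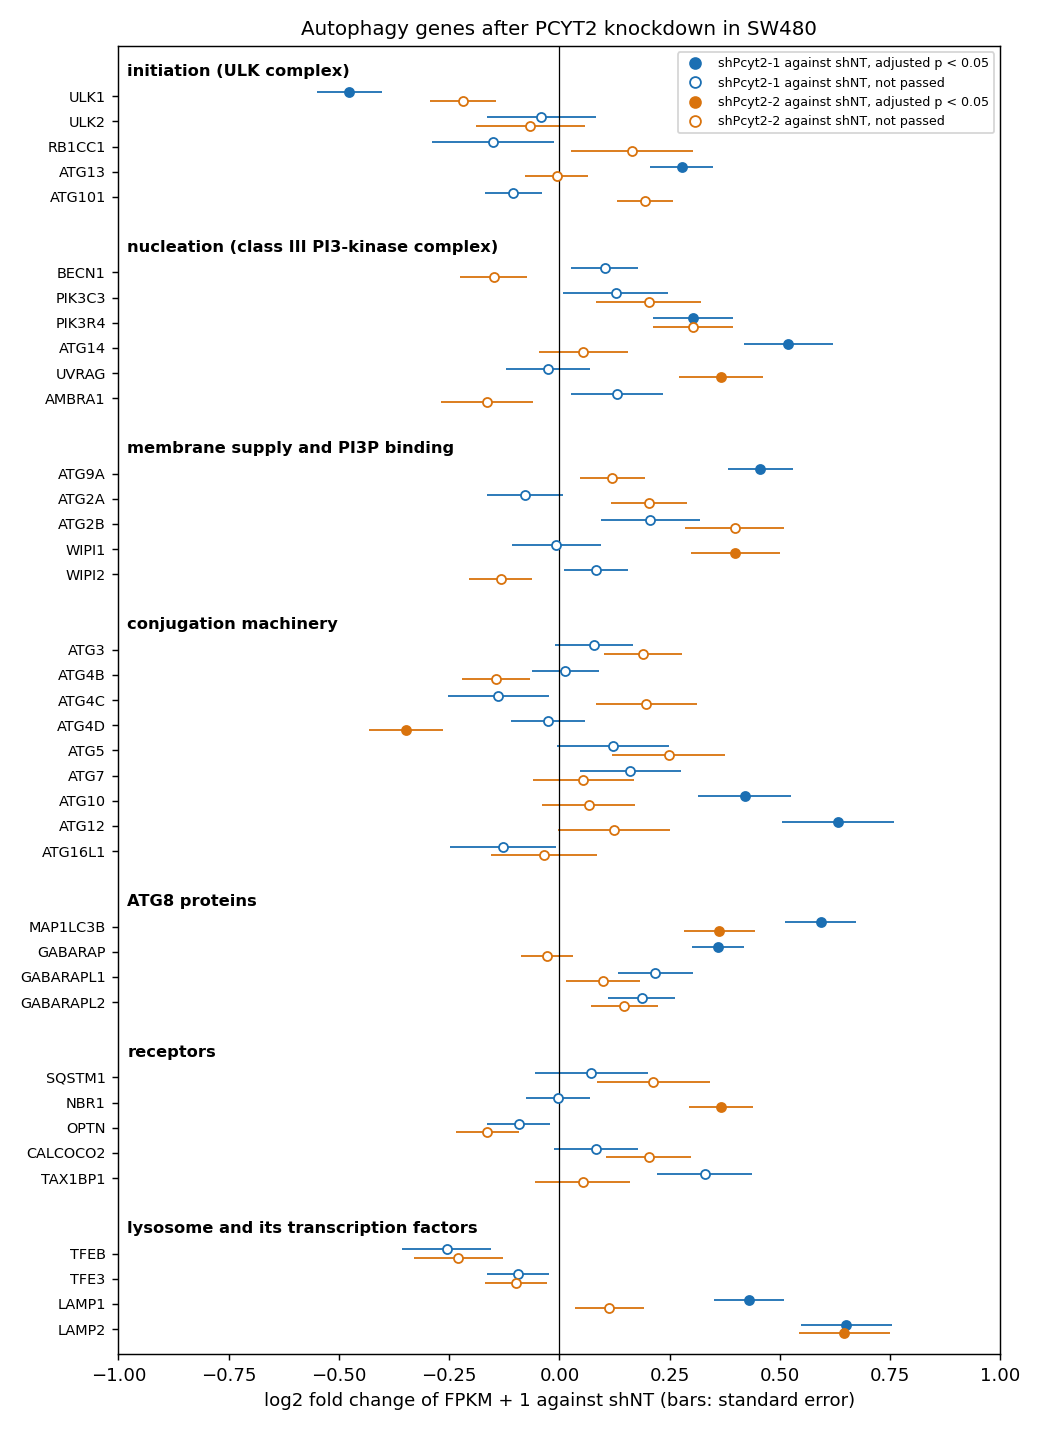
Log2 fold change of FPKM + 1 against shNT for the 38 autophagy genes by role, for shPcyt2-1 (blue) and shPcyt2-2 (orange), with bars for the standard error and filled points for a limma adjusted p under 0.05. Filled points of both colors appear only at MAP1LC3B (0.59 and 0.36) and LAMP2 (0.65 and 0.65).

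The ATG8 proteins are the ubiquitin-like proteins that become anchored to PE. MAP1LC3B (LC3B; ENSG00000140941, chromosome 16, 87383995 to 87404779) was at 37.7 and 32.4 FPKM with shNT, 52.7 and 53.6 FPKM with shPcyt2-1, and 44.1 and 46.4 FPKM with shPcyt2-2. All knockdown libraries lay above both shNT libraries, and the shPcyt2-1 libraries lay highest. The log2 fold change was 0.59 with shPcyt2-1 (standard error 0.080, limma adjusted p = 0.00193) and 0.36 with shPcyt2-2 (standard error 0.080, limma adjusted p = 0.0236). The second call was lost with median-ratio scaling, with no filter, without the variance trend, and without replicate 2 of shNT or either shPcyt2-2 library (limma adjusted p up to 0.11). MAP1LC3B has a near-identical copy, MAP1LC3B2, whose reads could be split between them. MAP1LC3B2 had log2 fold changes of 0.41 and 0.31 and did not pass (limma adjusted p = 0.0611 and 0.169).

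GABARAP (ENSG00000170296, chromosome 17, 7240014 to 7242770) differed between the hairpins. It was at 97.2 and 92.8 FPKM with shNT, 122 and 122 FPKM with shPcyt2-1, and 95.5 and 90.8 FPKM with shPcyt2-2. The shPcyt2-1 libraries lay apart from the other 4, which overlapped. It rose by 0.36 on the log2 scale with shPcyt2-1 (standard error 0.059, limma adjusted p = 0.00399), while its value of -0.03 with shPcyt2-2 did not pass (limma adjusted p = 0.781). The hairpins differed by -0.39 for GABARAP (limma adjusted p = 0.00204). The value with shPcyt2-2 was 0.0052 without replicate 1 of shNT. Of its exonic bases, 55.7% overlap the predicted genes AC120057.2 and AC120057.3, so its reads could have been divided.

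The remaining ATG8 genes did not pass with either hairpin. GABARAPL1 was at 40.4 and 36.1 FPKM with shNT, 44.1 and 45.1 FPKM with shPcyt2-1, and 38.3 and 44.0 FPKM with shPcyt2-2. GABARAPL2 was at 40.6 and 35.5 FPKM with shNT, 44.2 and 42.6 FPKM with shPcyt2-1, and 42.2 and 42.1 FPKM with shPcyt2-2. Their log2 fold changes were 0.22 and 0.19 with shPcyt2-1, and 0.10 and 0.15 with shPcyt2-2 (limma adjusted p from 0.0869 to 0.46). Summed over the 4 genes, the ATG8 level was 216 and 196.9 FPKM with shNT, 263.2 and 263.3 FPKM with shPcyt2-1, and 220.1 and 223.2 FPKM with shPcyt2-2. The sum was far above shNT with shPcyt2-1, and with shPcyt2-2 both libraries lay just above the higher shNT library.

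**Figure D2:**
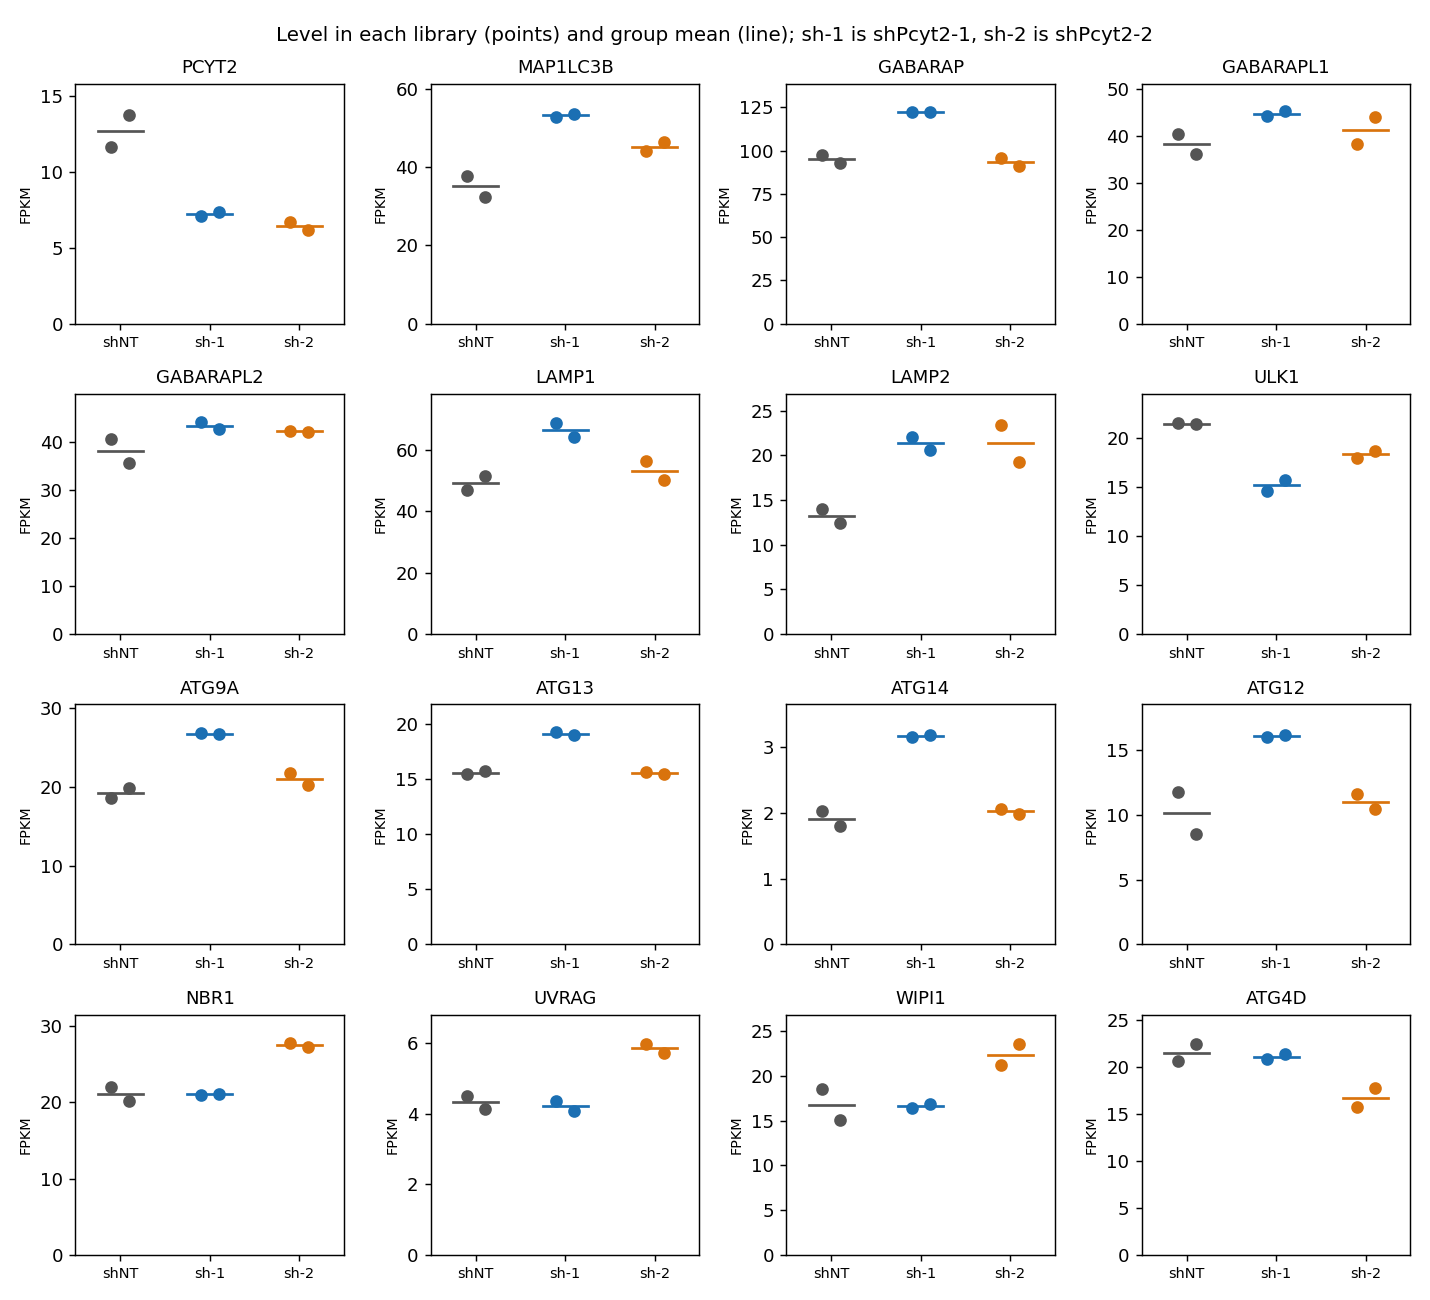
Level in FPKM (linear axes from 0) of PCYT2 and 15 autophagy genes in each of the 6 libraries, with points for libraries and lines for group means. PCYT2 is lower with both hairpins, MAP1LC3B and LAMP2 are higher with both, and GABARAP, ATG9A, ATG13, ATG14 and ATG12 stand apart with shPcyt2-1, whereas NBR1, UVRAG and WIPI1 stand apart with shPcyt2-2.

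Of the 9 genes of the conjugation machinery, 2 were called higher with shPcyt2-1 (22.2%, against 16.5% of all genes) and 1 lower with shPcyt2-2 (11.1%, against 4.74%). Counts this small say nothing about the group. ATG12, the ubiquitin-like protein that is joined to ATG5, was at 11.7 and 8.53 FPKM with shNT, 16.0 and 16.1 FPKM with shPcyt2-1, and 11.6 and 10.5 FPKM with shPcyt2-2. The shNT libraries were far apart and enclosed the shPcyt2-2 libraries, while both shPcyt2-1 libraries were higher. Its log2 fold change was 0.63 with shPcyt2-1 (standard error 0.13, limma adjusted p = 0.00865), against 0.12 with shPcyt2-2 (limma adjusted p = 0.543). With no filter on low values the ATG12 call was lost (limma adjusted p = 0.0625). ATG10 rose from 0.616 and 0.564 FPKM with shNT to 1.09 and 1.16 FPKM with shPcyt2-1 (log2 fold change 0.42, limma adjusted p = 0.0202), and was at 0.718 and 0.615 FPKM with shPcyt2-2. At this level a fold change of FPKM + 1 understates the change, and the ratio of the mean FPKM values was 1.91. The call of ATG10 was lost after correction for GC content and gene length and without any 1 of the 4 libraries it compares. ATG4D, 1 of the proteases that cut ATG8 proteins before and after lipidation, was at 20.6 and 22.5 FPKM with shNT, 20.9 and 21.4 FPKM with shPcyt2-1, and 15.7 and 17.8 FPKM with shPcyt2-2. It fell with shPcyt2-2 (log2 fold change -0.35, standard error 0.084, limma adjusted p = 0.0312), and the call was lost after correction for GC content and gene length, without the variance trend, with no filter, and without replicate 2 of shNT or either shPcyt2-2 library. The 6 other genes did not pass with either hairpin. These were ATG3 (log2 fold change 0.08 with shPcyt2-1 and 0.19 with shPcyt2-2), the E1-like enzyme ATG7 (0.16 and 0.05), ATG5 (0.12 and 0.25), ATG16L1 (-0.13 and -0.03), and the proteases ATG4B (0.01 and -0.14) and ATG4C (-0.14 and 0.20).

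Within the ULK complex the subunits did not move together. ULK1, the kinase (ENSG00000177169, chromosome 12, 131894651 to 131923167), was at 21.5 and 21.4 FPKM with shNT, 14.6 and 15.7 FPKM with shPcyt2-1, and 17.9 and 18.6 FPKM with shPcyt2-2. Every knockdown library was below the shNT pair. It fell by 0.48 on the log2 scale with shPcyt2-1 (standard error 0.074, limma adjusted p = 0.00336), and its log2 fold change of -0.22 with shPcyt2-2 did not pass (limma adjusted p = 0.0834). ATG13, an adaptor subunit, was at 15.4 and 15.7 FPKM with shNT, 19.2 and 18.9 FPKM with shPcyt2-1, and 15.6 and 15.4 FPKM with shPcyt2-2. It rose with shPcyt2-1 (log2 fold change 0.28, standard error 0.071, limma adjusted p = 0.0219), a call that was lost with median-ratio scaling and without any 1 of the 4 libraries it compares. ATG101 was at 46.5 and 47.7 FPKM with shNT, 42.6 and 45.0 FPKM with shPcyt2-1, and 53.1 and 55.0 FPKM with shPcyt2-2. Its hairpin changes of -0.10 and 0.19 lay on opposite sides of shNT and did not pass (limma adjusted p = 0.25 and 0.0766). ULK2 (-0.04 and -0.07) and the scaffold RB1CC1, also called FIP200 (-0.15 and 0.16), did not pass either.

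Of the 6 genes of the class III PI3-kinase complex and its partners, 2 were called higher with shPcyt2-1 (33.3%, against 16.5% of all genes) and 1 with shPcyt2-2 (16.7%, against 7.69%), again too few to describe the group. ATG14 was at 2.03 and 1.80 FPKM with shNT, 3.16 and 3.19 FPKM with shPcyt2-1, and 2.06 and 1.99 FPKM with shPcyt2-2. Only the shPcyt2-1 libraries stood apart, with a log2 fold change of 0.52 (standard error 0.10, limma adjusted p = 0.0077) against 0.05 with shPcyt2-2 (limma adjusted p = 0.751). Without replicate 1 of shPcyt2-1 the ATG14 call was lost (limma adjusted p = 0.0513). UVRAG, which takes the place of ATG14 in another form of the complex, showed the opposite pattern. It was at 4.50 and 4.14 FPKM with shNT, 4.37 and 4.08 FPKM with shPcyt2-1, and 5.98 and 5.72 FPKM with shPcyt2-2. UVRAG rose with shPcyt2-2 and not with shPcyt2-1, where its log2 fold change was -0.03 (limma adjusted p = 0.87). With shPcyt2-2 it was 0.37 (standard error 0.096, limma adjusted p = 0.0391), a call that was lost with no filter, with only the 4 libraries compared in the fit, and when any 1 of the 6 libraries was left out. PIK3R4 (VPS15), the regulatory subunit, was at 4.68 and 4.44 FPKM with shNT, 5.90 and 5.82 FPKM with shPcyt2-1, and 5.98 and 5.73 FPKM with shPcyt2-2. It was about equally high with both hairpins (log2 fold change 0.30 and 0.30), but only the first passed (limma adjusted p = 0.0369 and 0.0586), and that call was lost with median-ratio scaling, with no filter, after correction for GC content and gene length and without any 1 of the 4 libraries it compares. The catalytic subunit PIK3C3 (0.13 and 0.20), the scaffold BECN1 (0.10 and -0.15) and AMBRA1 (0.13 and -0.16) did not pass.

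For membrane supply, ATG9A, the transmembrane lipid scramblase of the pathway (ENSG00000198925, chromosome 2, 219219380 to 219229717), was at 18.6 and 19.9 FPKM with shNT, 26.8 and 26.7 FPKM with shPcyt2-1, and 21.7 and 20.3 FPKM with shPcyt2-2. It rose with shPcyt2-1 (log2 fold change 0.46, standard error 0.074, limma adjusted p = 0.00379), and with shPcyt2-2 its value of 0.12 did not pass (limma adjusted p = 0.3). Of its exonic bases, 38.8% overlap the predicted gene AC068946.2. WIPI1, which binds PI3P, was at 18.5 and 15.1 FPKM with shNT, 16.5 and 16.8 FPKM with shPcyt2-1, and 21.2 and 23.6 FPKM with shPcyt2-2. It rose with shPcyt2-2 (log2 fold change 0.40, standard error 0.10, limma adjusted p = 0.0353), a call that was lost with median-ratio scaling, after correction for GC content and gene length, without the variance trend, with no filter, and without replicate 2 of shNT or either shPcyt2-2 library. Of its exonic bases, 28.1% overlap other genes, mainly ARSG on the opposite strand. ATG2B did not pass (0.21 and 0.40, limma adjusted p = 0.2 and 0.0505), although with shPcyt2-2 it was called at a mean of at least 1, with median-ratio scaling, without the variance trend and with the replicate block. Nor did ATG2A (-0.08 and 0.20) pass, or WIPI2 (0.08 and -0.13).

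Among the 5 receptors, NBR1 alone passed. It was at 22.0 and 20.2 FPKM with shNT, 20.9 and 21.1 FPKM with shPcyt2-1, and 27.7 and 27.2 FPKM with shPcyt2-2. Both shPcyt2-2 libraries lay above the other 4, and the log2 fold change was 0.37 with shPcyt2-2 (standard error 0.072, limma adjusted p = 0.0162), against -0.0039 with shPcyt2-1 (limma adjusted p = 0.974). With no filter, and without replicate 2 of shNT or either shPcyt2-2 library, the call was lost. SQSTM1 (p62) was at 39.1 and 38.9 FPKM with shNT, 37.3 and 45.2 FPKM with shPcyt2-1, and 39.4 and 52.2 FPKM with shPcyt2-2. Of its exonic bases, 22% overlap other genes, mainly MRNIP on the opposite strand. Its knockdown libraries were further apart than the change itself, and neither value passed (log2 fold change 0.07 and 0.21, limma adjusted p = 0.7 and 0.287). TAX1BP1 missed the threshold with shPcyt2-1 (0.33, limma adjusted p = 0.0502) and was at 0.05 with shPcyt2-2. With shPcyt2-1 it was called at a mean of at least 1, with the replicate block, and without replicate 1 of shNT (0.51). OPTN (-0.09 and -0.16) and CALCOCO2, also called NDP52 (0.08 and 0.20), did not pass.

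At the lysosome, LAMP2 (ENSG00000005893, chromosome X, 120427827 to 120469365) was at 14.0 and 12.5 FPKM with shNT, 22.1 and 20.6 FPKM with shPcyt2-1, and 23.4 and 19.3 FPKM with shPcyt2-2. The 4 knockdown libraries lay above both shNT libraries. Its log2 fold change was 0.65 with shPcyt2-1 (standard error 0.10, limma adjusted p = 0.00358) and 0.65 with shPcyt2-2 (standard error 0.10, limma adjusted p = 0.00832), the latter not past the threshold without replicate 1 of shPcyt2-2 and with no filter (limma adjusted p up to 0.078). LAMP1 (ENSG00000185896, chromosome 13, 113297241 to 113323672) was at 46.9 and 51.4 FPKM with shNT, 68.8 and 64.3 FPKM with shPcyt2-1, and 56.3 and 50.3 FPKM with shPcyt2-2. It rose with shPcyt2-1 (log2 fold change 0.43, standard error 0.079, limma adjusted p = 0.00597), and its libraries overlapped those of shNT with shPcyt2-2 (0.11, limma adjusted p = 0.355). TFEB, the lysosomal transcription factor, was at 7.32 and 8.14 FPKM with shNT, 5.87 and 6.77 FPKM with shPcyt2-1, and 6.25 and 6.63 FPKM with shPcyt2-2. Every knockdown library was below the shNT pair, but neither value passed (log2 fold change -0.26 and -0.23, limma adjusted p = 0.0907 and 0.16). TFE3 was at -0.09 and -0.10 and did not pass. The RNA of the 2 factors does not report their activity, which is set largely by where the proteins are in the cell.

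The hairpins were then compared directly, since a call with one and not the other does not show a difference. In shPcyt2-2 against shPcyt2-1, 15 of the 38 genes passed, 6 higher and 9 lower with shPcyt2-2. Over all tested genes 12.9% were called higher and 14.2% lower. The higher genes were ULK1, ATG101, UVRAG, ATG2A, WIPI1 and NBR1. The lower genes were ATG13, BECN1, ATG14, ATG9A, ATG4D, ATG10, ATG12, GABARAP and LAMP1. Of the 9 genes called with shPcyt2-1 alone, 8 differed between the hairpins (all but PIK3R4), and so did all 4 called with shPcyt2-2 alone. The other 3 were called with neither hairpin: ATG101 (difference 0.30, limma adjusted p = 0.0093), ATG2A (0.28, limma adjusted p = 0.039) and BECN1 (-0.25, limma adjusted p = 0.0382).

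For the last of these the values by library were as follows. BECN1 was at 17.8 and 16.9 FPKM with shNT, 18.4 and 19.0 FPKM with shPcyt2-1, and 16.1 and 15.0 FPKM with shPcyt2-2. ATG2A was at 15.7 and 18.0 FPKM with shNT, 15.4 and 16.4 FPKM with shPcyt2-1, and 20.03 and 19.06 FPKM with shPcyt2-2. For both genes the 2 hairpins did not overlap, and for BECN1 the shNT libraries lay between them. LAMP2 did not pass in this comparison (-0.0049, limma adjusted p = 0.977), nor did MAP1LC3B (-0.23, limma adjusted p = 0.0619), which was called when either shNT library was left out. After correction for GC content and gene length 19 genes were called, with AMBRA1, ATG4B, ATG4C, RB1CC1 and WIPI2 added and ULK1 lost, while all genes gave 2312 higher and 2405 lower. ATG4C was also called with median-ratio scaling, without the variance trend, with the replicate block and without replicate 2 of shPcyt2-2, AMBRA1 with that scaling and without replicate 1 of shPcyt2-2, and TAX1BP1 and WIPI2 with the block and without either shNT library. Leaving out 1 of the 4 knockdown libraries left between 3 and 8 genes called, while calls over all genes fell from 1648 higher and 1815 lower to 887 and 775 at the fewest, and only GABARAP and NBR1 passed under every alternative and without each library in turn.

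When the 4 knockdown libraries were taken as 1 group against shNT, 0 of the 38 genes passed by limma, where 0.00784% of all tested genes (1 gene) did. At an unadjusted p under 0.05 there were 4 higher (MAP1LC3B, LAMP2, PIK3R4 and ATG2B) and 2 lower (ULK1 and TFEB), against 11.7% and 4.97% of all genes. In 6 genes all 4 knockdown libraries lay above both shNT libraries, against 20.7% of all genes, and in 4 they lay below, against 9.48%. The 6 were PIK3R4, ATG9A, ATG2B, MAP1LC3B, GABARAPL2 and LAMP2, and the 4 were ULK1, OPTN, TFEB and TFE3. Both shares (15.8% and 10.5% of the 38 genes) were near those over all genes. The mean of both hairpins from the fit with 3 groups called 7 genes, with ATG12, ATG9A, LAMP1, LAMP2, MAP1LC3B and PIK3R4 higher and ULK1 lower, since that fit does not count the difference between the hairpins as spread. Over all tested genes it called 10.9% higher and 5.85% lower.

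Genes of the wider pathway were counted from lists by function. Of 27 tested genes of lysosomal proteins, 13 were called higher with shPcyt2-1 (48.1%) and 9 with shPcyt2-2 (33.3%), and none was called lower with either, against the 16.5% and 7.69% higher over all tested genes. The median lysosomal gene changed by 0.25 on the log2 scale with shPcyt2-1 and 0.19 with shPcyt2-2. With median-ratio scaling 9 were higher and 2 lower with shPcyt2-1, and 7 higher and 0 lower with shPcyt2-2. With no filter 8 and 2 were higher, against 1078 and 59 of all 19746 genes. Without replicate 1 of shPcyt2-1 the first count was 7, against 626 of all 12756 genes, and without replicate 1 of shPcyt2-2 the second was 3, against 55, so calls over all genes fell by a larger share than those of the list. ATP6V1A, a subunit of the lysosomal proton pump, was at 16.8 and 15.5 FPKM with shNT, 21.4 and 23.01 FPKM with shPcyt2-1, and 27.4 and 25.02 FPKM with shPcyt2-2. It rose with both hairpins (log2 fold change 0.44 and 0.67, limma adjusted p = 0.00637 and 0.00318). So did ATP6V1B2, another subunit of the pump (log2 fold change 0.67 and 0.38, limma adjusted p = 0.00123 and 0.0193), as well as TPP1 and LAPTM4A. ATP6V1A kept its calls with both hairpins without any 1 library, whereas ATP6V1B2 lost the call with shPcyt2-2 without replicate 2 of shNT or replicate 1 of shPcyt2-2, and TPP1 and LAPTM4A each lost at least 1 call. LIPA, the lysosomal acid lipase, rose with shPcyt2-1 (0.59, limma adjusted p = 0.0035) and was at 0.19 with shPcyt2-2 (limma adjusted p = 0.196). In the direct comparison of the hairpins, 7 lysosomal genes were higher and 8 lower with shPcyt2-2 (25.9% and 29.6%, against 12.9% and 14.2% of all genes). These counts were 3 and 2 without replicate 1 of shPcyt2-1, 4 and 6 without its replicate 2, 3 and 7 without replicate 1 of shPcyt2-2, 6 and 3 without its replicate 2, 6 and 4 without the variance trend, and 4 and 3 with no filter.

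Among 15 genes of fusion and transport, 5 were called higher and 0 lower with shPcyt2-1 (33.3% higher, against 16.5% of all genes). With median-ratio scaling 3 were higher and 2 lower, after correction for GC content and gene length 5 and 2, and with no filter 2 and 0. With shPcyt2-2 none was called, and 3 were higher and 2 lower at an unadjusted p under 0.05, shares near the 19.6% and 11.6% over all genes. The 5 that rose with shPcyt2-1 were VPS41 (0.58, limma adjusted p = 0.00975), EPG5 (0.35, limma adjusted p = 0.0308), the SNARE proteins VAMP8 (0.34, limma adjusted p = 0.02) and YKT6, and RAB7A, the late endosomal GTPase. Without replicate 1 of shPcyt2-1, where calls over all genes also fell, none of them passed. Of 12 tested further genes of autophagosome formation, 1 was higher and 1 lower with each hairpin (8.33% each way), below the shares over all genes with shPcyt2-1 (16.5% and 10.1%) and near those with shPcyt2-2 (7.69% and 4.74%). VMP1 rose (0.43, limma adjusted p = 0.00432) and NRBF2, a subunit of the ATG14 complex, fell (-0.77, limma adjusted p = 0.00119) with shPcyt2-1, while WDR45B rose (0.34, limma adjusted p = 0.015) and ULK3 fell (-0.74, limma adjusted p = 0.00165) with shPcyt2-2. NRBF2 was at 8.09 and 7.82 FPKM with shNT, 4.34 and 4.17 FPKM with shPcyt2-1, and 9.05 and 8.31 FPKM with shPcyt2-2, so the hairpins lay on opposite sides of shNT. The calls of VMP1, NRBF2 and ULK3 held without any 1 library, and that of WDR45B was lost without replicate 2 of shNT or either shPcyt2-2 library. Of 13 tested receptors and partners for organelles and other cargo, 1 was higher with each hairpin (7.69%), against 16.5% and 7.69% over all genes: NCOA4, the ferritin receptor, with shPcyt2-1 (0.32, limma adjusted p = 0.0359) and the kinase TBK1 with shPcyt2-2 (0.62, limma adjusted p = 0.016). The call of NCOA4 was lost without replicate 2 of shNT or either shPcyt2-1 library and under 4 of the alternatives, correction for GC content and gene length among them, and that of TBK1 without replicate 2 of shNT or replicate 1 of shPcyt2-2 and with no filter.

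**Figure D3:**
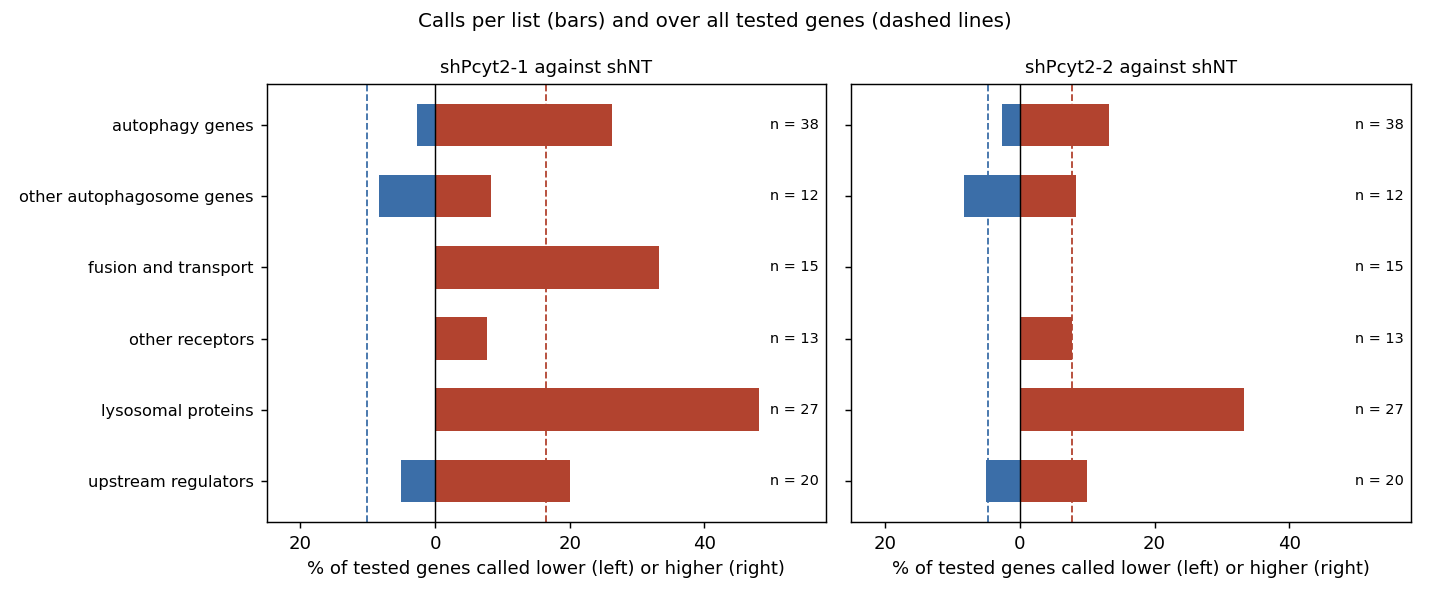
Share of tested genes in each of 6 lists of 12 genes or more called higher (red, right) or lower (blue, left) than with shNT, with the share over all tested genes as dashed lines, for shPcyt2-1 (left panel) and shPcyt2-2 (right panel). Among these 6 lists the lysosomal proteins have the longest red bars (48.1% and 33.3%), and the 38 autophagy genes stand at 26.3% and 13.2%.

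Of 20 tested upstream regulators, 4 were higher and 1 lower with shPcyt2-1, and 2 were higher and 1 lower with shPcyt2-2. These shares (20% and 5%, then 10% and 5%) lay near or below those over all tested genes (16.5% and 10.1%, then 7.69% and 4.74%). With median-ratio scaling 3 were higher and 1 lower with shPcyt2-1, and 1 was higher and 3 lower with shPcyt2-2. The genes named next are thus single values and not a result about the list. PRKAA1, a catalytic subunit of AMPK, was at 4.55 and 4.17 FPKM with shNT, 5.88 and 5.61 FPKM with shPcyt2-1, and 7.47 and 6.95 FPKM with shPcyt2-2. It rose with both hairpins (0.33 and 0.62, limma adjusted p = 0.0308 and 0.00731), as did SESN2, an inhibitor of mTORC1 signaling (0.43 and 0.36, limma adjusted p = 0.0117 and 0.0392). PRKAA1 lost the call with shPcyt2-2 without replicate 1 of shPcyt2-2 and that with shPcyt2-1 without replicate 2 of shNT or either shPcyt2-1 library and after correction for GC content and gene length, and SESN2 lost the call with shPcyt2-2 without any 1 of the 6 libraries and that with shPcyt2-1 without replicate 2 of shNT or replicate 1 of shPcyt2-1. RRAGC, a GTPase that recruits mTORC1 to the lysosome, rose with shPcyt2-1 (0.57, limma adjusted p = 0.0148; lost without replicate 2 of shNT or replicate 1 of shPcyt2-1) and did not pass with shPcyt2-2 (0.41, limma adjusted p = 0.0693). DDIT4, an inhibitor of mTORC1, fell with shPcyt2-1 (-0.42, limma adjusted p = 0.0142), a call that was lost without replicate 1 of shPcyt2-1 and with no filter. Of the exonic bases of DDIT4, 41.2% overlap DDIT4-AS1 on the opposite strand. AKT1S1, also called PRAS40, fell with shPcyt2-2 (-0.51, limma adjusted p = 0.0032). MTOR itself was at 0.05 and -0.06 and did not pass. Of 6 genes of PE supply, 3 were higher and 1 lower with shPcyt2-1 (50% and 16.7%, against 16.5% and 10.1% of all genes), and 1 higher and 1 lower with shPcyt2-2 (16.7% each way, against 7.69% and 4.74%). The lower gene was PCYT2, the target itself, and so few genes do not describe the group. ETNK1, the ethanolamine kinase that acts before PCYT2, rose with both hairpins (0.50 and 0.50, limma adjusted p = 0.00739 and 0.0149), and CEPT1 (0.32, limma adjusted p = 0.0466) and PISD (0.24, limma adjusted p = 0.0495), the mitochondrial phosphatidylserine decarboxylase, rose with shPcyt2-1. The call of ETNK1 with shPcyt2-2 was lost without replicate 2 of shNT or replicate 1 of shPcyt2-2, that of CEPT1 without any 1 library other than replicate 1 of shNT, and that of PISD without any 1 of the 6.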

How the data were processed

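RNA-Seq had been done on 6 SW480 libraries, with RNA taken by TRIzol and libraries made by a sequencing provider. In the labels 2 library kits are named, with no map from kit to library. The authors deposited 1 table per library with normalized values, whose unit was inferred from their range to be FPKM (TPM over part of the genes cannot be told apart). The tables list only genes above 0, and 0 of the 13 protein-coding genes of mitochondrial DNA appear. The submitters' processing notes list GRCh38, GRCm38 and mm10 without a role, and the aligner and annotation are not given in the sources used here. The study's methods name a test for read counts, which these values are not.

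Of 21539 identifiers, 115 repeated within a library were summed, and 999 groups with identical values (SQSTM1 among them) were merged, to give 19746 genes. GENCODE release 29 (GRCh38) gave symbols and coordinates. The 12756 genes whose mean reached 0.5 were transformed to log2(FPKM + 1) and fitted in R 4.3.3 with limma 3.58.1, using its mean-variance trend, and p-values were adjusted by Benjamini-Hochberg over all 12756. The pseudocount makes the changes of low genes look smaller. Single hairpins and their difference came from a fit with 3 groups, and the pooled comparison from a fit with 2. The fits were also run on simulated data with independent noise, in which 200 genes moved equally with both hairpins. That setting holds no difference between the hairpins, so it does not check the calls made here. Values are given by library for PCYT2, the ATG8 genes and, for each hairpin comparison, up to 10 higher and 10 lower called genes, and of other lists up to 3 each way are named, mostly by log2 fold change alone. TPP1, LAPTM4A, YKT6, RAB7A, TFEB, SQSTM1 and MTOR fall outside that rule and were picked with their values in view. One gene that the rule names is not reported here. The genes, the lists and the search for E-boxes were chosen with earlier results of these data known. Alternatives covered the pseudocount (0.1), the filter (none, or a mean of at least 1), median-ratio scaling, a trend on GC content and length, the variance model, a replicate block, leaving out each library, the libraries in the fit and the threshold. Figures were drawn with matplotlib 3.10.9.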

Additional observations from a re-analysis of the deposited data

Results flagged for a closer look

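In 15 genes the effects of the hairpins differed by the limma test of the difference itself (shPcyt2-2 minus shPcyt2-1 on the log2 scale). The difference was above 0 for ULK1 (0.26, limma adjusted p = 0.0307), ATG101 (0.30, limma adjusted p = 0.0093), UVRAG (0.39, limma adjusted p = 0.0162), ATG2A (0.28, limma adjusted p = 0.039), WIPI1 (0.41, limma adjusted p = 0.0173) and NBR1 (0.37, limma adjusted p = 0.00626). It was below 0 for ATG13 (-0.28, limma adjusted p = 0.0181), BECN1 (-0.25, limma adjusted p = 0.0382), ATG14 (-0.46, limma adjusted p = 0.0102), ATG9A (-0.34, limma adjusted p = 0.0104) and ATG4D (-0.32, limma adjusted p = 0.0213). The same held for ATG10 (-0.35, limma adjusted p = 0.0358), ATG12 (-0.51, limma adjusted p = 0.0176), GABARAP (-0.39, limma adjusted p = 0.00204) and LAMP1 (-0.32, limma adjusted p = 0.0174). Of these 15, only ULK1 and ATG9A had all 4 knockdown libraries on the same side of both shNT libraries. GABARAPL1 in replicate 1 of shPcyt2-2, at 38.3 FPKM, lay far below the other 3 knockdown libraries, which were between 44.0 and 45.1 FPKM. The gap was 0.83 of the range of the 4, just past Dixon's critical value, in 1 of 38 genes examined, and chance flags about 1 in 20. PCYT2 itself was not called in this test (-0.15, limma adjusted p = 0.309).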

How the results depend on the processing

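ATG9A, GABARAP, LAMP1, LAMP2, MAP1LC3B and ULK1 stayed called with shPcyt2-1 under each of the 8 alternatives run and without each of the 6 libraries. No call with shPcyt2-2 did. Leaving out each library gave 7 to 12 genes called with shPcyt2-1, 0 to 6 with shPcyt2-2, 3 to 18 between the hairpins and 0 in the pooled comparison. In most settings that ended calls, calls over all genes fell as well, so a lost call does not show that 1 library carried the change. With no filter on low values, where 19746 genes were tested, 0 were called with shPcyt2-2 and 9 between the hairpins. At an unadjusted p under 0.05, 13 were called with shPcyt2-2 and 6 in the pooled comparison, near the shares over all tested genes, and the mean of both hairpins from the fit with 3 groups called 7. GABARAP with shPcyt2-2 (-0.028) ranged from -0.064 to 0.0081 as each library was left out, above 0 without replicate 1 of shNT (0.0052) or replicate 2 of shPcyt2-2, and the cause was not tested. With the replicate number as a block, 13, 8, 18 and 0 genes were called in the 4 comparisons. With only 2 numbers and correlations of deviations of 0.0027, 0.062 and 0.19, the numbers were not taken to pair the libraries. Besides the genes gained that are named above, TFEB was called with shPcyt2-1 and PIK3R4 with shPcyt2-2 under the block, and without replicate 1 of shNT so were GABARAPL1, GABARAPL2 and ATG16L1 with shPcyt2-1 and ATG5 with shPcyt2-2. Median-ratio scaling moved the median of all genes with shPcyt2-1 from 0.067 to 0.0057. Depth in reads is unknown, and the 2 libraries per group limit the precision.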
